A study of Mus musculus with 14 samples.

Results

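The 7 genes described here encode transcription factors that direct blood progenitors towards the myeloid lineages: Spi1 (which encodes PU.1), Cebpa, Gfi1, Cebpe, Irf8, Cebpb and Cebpd. They were listed by name, with earlier results of these data known. They are 7 of 38926 gene entries in the LSK and MyePro count tables and 7 of 39179 in the LT-HSC count tables. All 7 were found in all 8 RNA libraries, by symbol in the first tables and by Ensembl ID in the second.

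The study compared mouse bone marrow cells with and without Dpy30, which encodes a core subunit of the complexes that methylate histone H3 at lysine 4. Control cells were Mx1-Cre; Dpy30F/+ (1 floxed and 1 intact allele) and KO cells were Mx1-Cre; Dpy30F/- (1 floxed and 1 null allele). Mx1-Cre is driven by an interferon-inducible promoter that acts in many cell types, so cells of both genotypes carried the recombinase, and cells of both had been through interferon induction. Donor marrow (CD45.2+) was mixed with C57Bl/6J competitor marrow (CD45.1+) and given to irradiated recipients. Every recipient received 4 injections of pIpC, a double-stranded RNA mimic, at 7.5 µg/g from week 7 after the transplant, and marrow was taken 2 weeks after the last injection. LSK cells, the lineage-negative Sca-1+ Kit+ cells that include stem and multipotent cells, and MyePro cells, whose gate the labels do not give, came as 1 library per genotype, each from 2 to 3 pooled mice. LT-HSC, the long-term stem cells, were collected in both transplants (1 and 2), giving 2 libraries per genotype, each from 7 to 9 pooled mice. Ages of the chimeras were not given in the sources used here.

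PU.1 and the C/EBP proteins bind the promoters and enhancers of most myeloid genes, among them those of the growth factor receptors and of the granule proteins. PU.1 is present from stem cells onward, and C/EBPα is required to form granulocyte and monocyte progenitors. From that branch point GFI1, a zinc finger repressor, and C/EBPε take cells along the neutrophil path, while IRF8 takes them along the monocyte and dendritic cell path, and GFI1 and IRF8 are known to oppose each other. C/EBPβ and C/EBPδ are induced by cytokines and in infection, when granulocyte output has to be raised.

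The genes lie on separate chromosomes apart from Spi1 and Cebpb, and their positions follow RefSeq's annotation on GRCm38.p6. Spi1 (ENSMUSG00000002111) lies on chromosome 2 from 91082374 to 91115759, and Cebpb (ENSMUSG00000056501) on the same chromosome from 167688915 to 167690432. Cebpa (ENSMUSG00000034957) lies on chromosome 7 from 35119293 to 35121928, Gfi1 (ENSMUSG00000029275) on chromosome 5 from 107716655 to 107725805 and Irf8 (ENSMUSG00000041515) on chromosome 8 from 120736358 to 120756694. Cebpe (ENSMUSG00000052435) lies on chromosome 14 from 54710363 to 54712174, and Cebpd (ENSMUSG00000071637) on chromosome 16 from 15887286 to 15889545. The last 322 bases of the Cebpd span overlap the annotated span of Spidr, so reads there could be shared or dropped, and no other member overlapped an annotated gene.

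Promoters were matched in RefSeq for 4 of the 7 genes, and those of Cebpa and Irf8 are shown because these genes had opposite ratios between KO and control. Each line gives the 250 bases before the annotated start, 5′ to 3′ on the plus strand of GRCm38.p6, Cebpa at chr7:35119043-35119292 and Irf8 at chr8:120736108-120736357. Capitals mark matches, on either strand, to 8 motifs that were searched.
Cebpa: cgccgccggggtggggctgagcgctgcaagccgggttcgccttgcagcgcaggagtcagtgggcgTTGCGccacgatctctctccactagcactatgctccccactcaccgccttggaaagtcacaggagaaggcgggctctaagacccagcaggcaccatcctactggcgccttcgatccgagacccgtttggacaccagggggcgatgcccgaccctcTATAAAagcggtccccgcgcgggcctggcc
Irf8: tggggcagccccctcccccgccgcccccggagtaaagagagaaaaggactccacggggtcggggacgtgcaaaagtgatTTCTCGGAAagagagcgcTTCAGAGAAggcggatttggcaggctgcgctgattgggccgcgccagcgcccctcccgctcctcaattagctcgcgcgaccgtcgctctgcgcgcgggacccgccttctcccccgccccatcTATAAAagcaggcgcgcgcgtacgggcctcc
The capitals in Cebpa are a short C/EBP core, TTGCG, 185 bases before the start and a TATA box, TATAAA, 30 bases before it. Those in Irf8 are 2 matches to TTCNNNGAA, the palindrome bound by STAT factors, at 171 and 153 bases before the start, and a TATA box at 31 bases. The C/EBP core was found in 14.5%, the STAT palindrome in 7.02% and the TATA box in 12.4% of 32851 promoter windows of the same length. None of the other 5 motifs had a match in these windows: the full C/EBP site TTNCGNAA (2.04% of all windows), the PU.1 site GAGGAA (23.3%), the ETS-IRF composite site (2.30%), the IRF site (2.98%) and the GFI1 site TAAATCAC (0.514%). The windows held 22 CpG dinucleotides in Cebpa and 29 in Irf8, against a median of 6 over all windows. Cebpb, with 41, stood higher still, and the Gfi1 windows at 2 annotated starts held 13 and 9. These matches are descriptions of the sequence, and binding of these factors was not analysed here.

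The libraries differed in depth, and in 1 of the LT-HSC libraries labelled KO the level of Dpy30 against its control depended on the scaling. LSK and MyePro libraries held 6130320 to 20820762 gene counts and LT-HSC libraries 38060087 to 85499797. Levels are given in CPM, read counts relative to library size after TMM scaling with edgeR, and the LT-HSC levels were scaled apart from the others and came from amplified RNA, so they are not set against them. Dpy30 measured 78.0 and 42.3 CPM in control and KO LSK, and 114 and 51.8 CPM in control and KO MyePro. In LT-HSC its level was 12.9 and 8.43 CPM in controls of transplants 1 and 2, and 14.1 and 4.67 CPM in the libraries labelled KO, so that the groups overlapped. KO LT-HSC 1 stood apart in its composition: mitochondrial ribosomal RNA made up 62.4% of its gene counts against 45.1% to 49.6% in the other 3, and its TMM factor was 0.580 against 1.14 to 1.26. With library totals Dpy30 measured 15.6 and 9.59 CPM in the controls of transplants 1 and 2 and 8.18 and 5.88 CPM in the libraries labelled KO, which then lay below both controls, as they did when scaled by ERCC spike-in counts. With library totals, however, 21.8% of all genes tested lay below both controls in both libraries labelled KO, and 2.43% above. With ERCC scaling 5.83% lay below and 1.6% above. On that scale Dpy30 in KO LT-HSC 2 was within counting error of control 2, at 8.63 against 9.49 CPM (log2 ratio -0.14, interval -0.36 to 0.08). The stem cell gene Mecom had 47.4 to 87.5 CPM in the LT-HSC libraries, and among the others 41.5 CPM in control LSK, 10.4 CPM in KO LSK, 1.76 CPM in control MyePro and 1.94 CPM in KO MyePro. Ly6a, which encodes the Sca-1 antigen of the LSK gate, had 31.5 and 62.1 CPM in LSK against 4.77 and 11.5 CPM in MyePro.

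**Figure D1:**
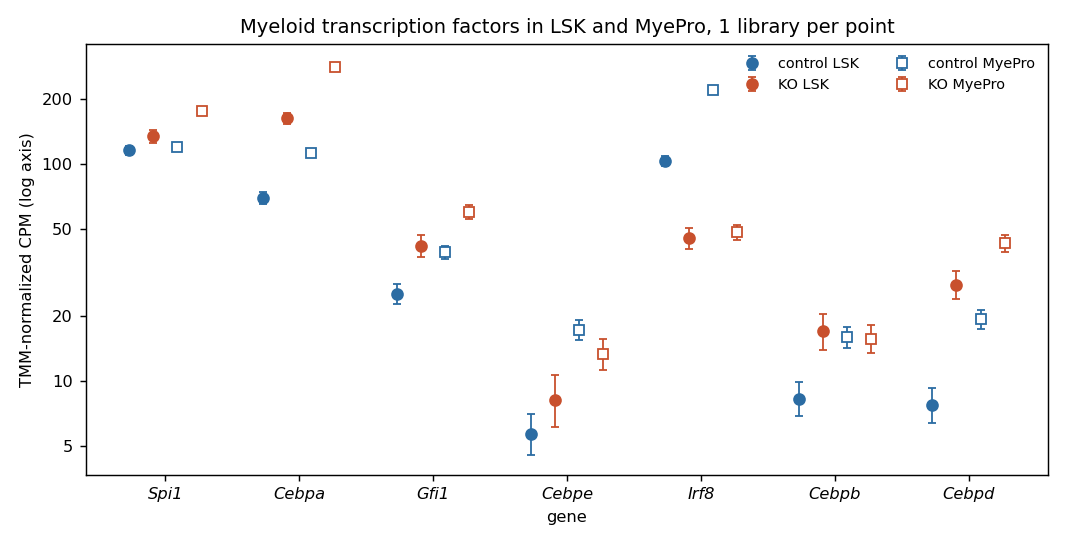
Level of each of the 7 genes in the 4 LSK and MyePro libraries, in TMM-normalized CPM on a log axis. Circles are LSK, squares MyePro, blue control and orange KO, and bars are 95% intervals for counting error. Irf8 is lower in both KO libraries than in both controls, and Cebpa and Cebpd are higher in each KO library than in the control of the same population.

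The comparison of KO with control LSK asked how loss of Dpy30 altered the multipotent fraction, and in it 3 of the 7 factors, all C/EBP genes, were at least 2-fold higher in KO while Irf8 was at least 2-fold lower. Of 10311 genes whose mean reached 5 CPM, 4.98% were higher and 5.39% lower in KO by that fold, 10.4% together, and the median log2 ratio was -0.04. The median of the 7 factors was 0.73, and 6 of the 7 ratios were positive. With 1 library per group there is no replicate check and no p-value, and the 95% intervals given with the ratios cover counting error only. In such bulk samples, fewer cells of a type and less RNA per cell cannot be told apart.

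Spi1 measured 116 CPM in control LSK and 134 CPM in KO LSK, a log2 ratio of 0.21 (interval 0.09 to 0.33). Spi1 was thus the member with the log2 ratio nearest to 0 in this population. Cebpa measured 69.9 CPM in the control library and 162 CPM in the KO library, a log2 ratio of 1.22 (1.09 to 1.34). The KO library therefore held 2.32 times the control level of the gene that opens the granulocyte and monocyte branch.

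The neutrophil path factors had smaller ratios in LSK. Gfi1 measured 25.2 CPM in the control library and 42.0 CPM in the KO library, a log2 ratio of 0.73 (0.51 to 0.97). Cebpe, the late neutrophil factor, rested on few reads, 84 in control and 54 in KO (5.71 and 8.17 CPM), and its interval reached 0 (log2 ratio 0.51, -0.0045 to 1.03). Irf8 went the other way, with 103 CPM in control and 45.5 CPM in KO, a log2 ratio of -1.18 (-1.37 to -1.01). KO LSK thus held 44.0% of the control level of the monocyte and dendritic cell factor.

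The cytokine-induced C/EBP genes were both higher in KO LSK. Cebpd measured 7.75 CPM in the control library and 27.7 CPM in the KO library, a log2 ratio of 1.82 (1.49 to 2.19), which was the largest of the 7. Cebpb stood at 8.29 and 16.9 CPM, a log2 ratio of 1.02, with an interval of 0.65 to 1.41 that extends below 2-fold. With library totals in place of TMM scaling the LSK ratios were higher by about the same amount for every gene (Cebpa 1.35, Spi1 0.35), and the median over all genes was then 0.09, with 58.6% of the genes past 2-fold on the higher side in place of 48.0%.

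In MyePro the same comparison found Cebpa and Cebpd at least 2-fold higher and Irf8 at least 2-fold lower, with Cebpb and Cebpe no longer higher in KO. Of 10244 genes, 11.3% were higher and 7.99% lower in KO by that fold, 19.3% together, and the median log2 ratio was -0.08. The median of the 7 factors was 0.54, with 4 positive and 3 negative ratios. Irf8 measured 218 CPM in the control library and 48.4 CPM in the KO library, a log2 ratio of -2.17 (-2.30 to -2.05), so that KO MyePro held 22.2% of the control level. This was the log2 ratio furthest from 0 of the 7 in MyePro.

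Cebpa measured 112 CPM in control MyePro and 281 CPM in KO MyePro, a log2 ratio of 1.32 (1.24 to 1.40), close to the ratio in LSK. Spi1 stood at 120 and 175 CPM (0.54, interval 0.46 to 0.63) and Gfi1 at 39.1 and 60.2 CPM (0.62, interval 0.47 to 0.77). Cebpd measured 19.3 CPM in the control library and 43.1 CPM in the KO library, a log2 ratio of 1.15 with an interval of 0.96 to 1.36 that reaches just under 2-fold. Cebpb was level, at 15.9 and 15.7 CPM (-0.02, interval -0.29 to 0.25), and Cebpe was slightly lower in KO, at 17.2 and 13.3 CPM (-0.37, interval -0.66 to -0.09). The sign for Cebpb turned with the scaling, to 0.020 with library totals.

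**Figure D2:**
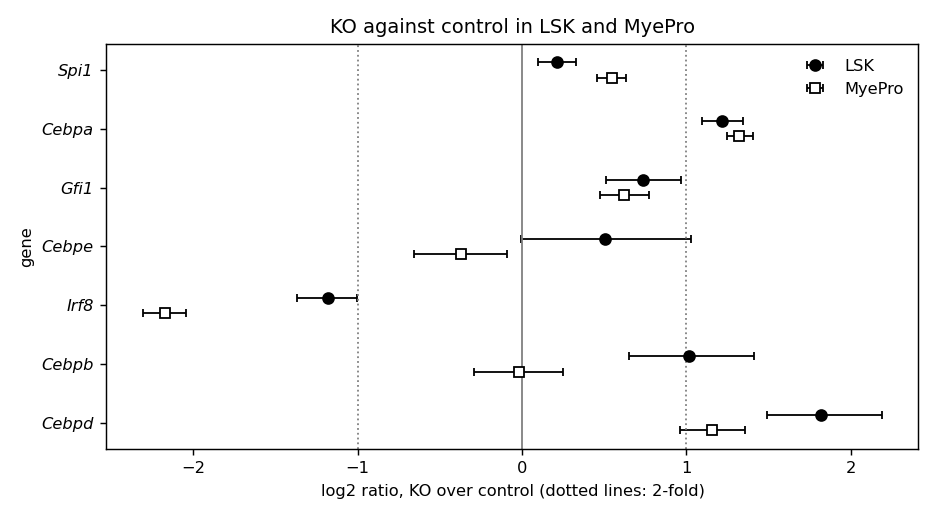
Log2 ratio of KO over control for each gene in LSK (filled circles) and MyePro (open squares), with 95% intervals for counting error and dotted lines at 2-fold. Irf8 lies at -1.18 and -2.17, Cebpa at 1.22 and 1.32, and Cebpb at 1.02 in LSK and -0.02 in MyePro.

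Markers of several cell types moved with these ratios, and their part in them was not tested. The summed level of 9 mature neutrophil markers was 34.1 CPM in control LSK and 306 CPM in KO LSK, and 39.8 and 769 CPM in MyePro. In each population 4 of the 9 averaged 5 CPM or more, and all 4 (S100a8, S100a9, Lcn2 and Cxcr2) were at least 2-fold higher in KO, a count partly set by the minimum, since S100a8 in LSK and S100a9 in both populations reached it only through the KO library. S100a8, S100a9 and Retnlg were at 0 in control LSK, Ltf was at 0 in KO LSK, and Camp was at 0 in both MyePro libraries. The 7 macrophage markers summed to 55.0 and 132 CPM in control and KO LSK and to 26.1 and 229 CPM in MyePro, with none at 0. The 10 erythroid markers summed to 737 and 48.4 CPM in LSK, where only Slc4a1 was at 0 in KO, and to 3271 and 374 CPM in MyePro. Of 8 that averaged 5 CPM or more in LSK, 7 were at least 2-fold lower in KO. Hbb-bs was higher there (2.04 and 12.2 CPM). Of 9 in MyePro 7 were lower, and Hbb-bs (2.36 and 36.6 CPM) and Hba-a1 (3.46 and 12.4 CPM) were higher. These globin genes reached the minimum only through the KO library. The 8 megakaryocyte markers summed to 686 and 718 CPM in LSK and to 173 and 1528 CPM in MyePro, with none at 0. The near-equal sums in LSK held genes that divided. At least 2-fold higher in KO LSK were 2 (Ppbp, at 4.35 and 47.5 CPM, and Clec1b, at 1.16 and 14.1 CPM). Lower was 1 (Vwf, at 92.9 and 9.98 CPM). In MyePro 7 of the 8 were higher and 0 lower, beside 11.3% and 7.99% of all genes. Ppbp and Clec1b reached the minimum of 5 CPM only through the KO library in both populations, with 0.702 and 1.00 CPM in control MyePro. The 7 mast cell, basophil and eosinophil markers summed to 327 and 690 CPM in LSK and to 646 and 1156 CPM in MyePro, with none at 0, but did not move together: past 2-fold were 3 on each side in LSK, and 2 on the higher and 3 on the lower side in MyePro. Mcpt8 stood at 78.3 and 205 CPM in control and KO LSK, and Prss34 at 108 and 6.96 CPM. The 7 T and NK cell markers summed to 203 and 585 CPM in LSK and to 207 and 646 CPM in MyePro. Most of each sum came from Nkg7, at 197 and 451 CPM in LSK and 197 and 516 CPM in MyePro. Gzmb stood at 4.62 and 104 CPM in LSK and at 9.23 and 105 CPM in MyePro. Cd3e, Cd3g and Ncr1 were under 1 CPM in all 4 libraries, so these sums do not describe the markers as a set. Cd3e, Cd3g and Gzma were at 0 in control LSK, Ncr1 and Gzma in control MyePro and Cd3g in KO MyePro. The 6 endothelial and stromal markers summed to 105 and 214 CPM in LSK and to 82.2 and 214 CPM in MyePro, with Lepr at 0 in control LSK and KO MyePro. Most of each sum was Pecam1, at 98.4 and 188 CPM in LSK and 78.8 and 161 CPM in MyePro. The 6 B cell markers summed to 24.9 and 2.42 CPM in LSK and to 19.8 and 3.52 CPM in MyePro, with Ebf1 and Ms4a1 at 0 in all 4 libraries. Nearly all of the control sums came from 1 gene, Cd79b, at 24.6 and 1.51 CPM in LSK and 19.5 and 2.55 CPM in MyePro. The remaining B cell markers were under 1 CPM in all 4 libraries, so the sums do not describe the markers as a set.

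The difference between MyePro and LSK within each genotype asked how expression changes from the multipotent to the more committed fraction. In control cells all 7 factors had positive log2 ratios of MyePro over LSK, and 3 were at least 2-fold higher in MyePro, where 3.01% of 10059 genes were. Those 3 were Cebpe (log2 ratio 1.57, interval 1.24 to 1.95), Cebpd (1.30, interval 1.01 to 1.63) and Irf8 (1.08, interval 0.99 to 1.16). Cebpb followed at 0.93, Cebpa at 0.68 and Gfi1 at 0.63, while Spi1 was level between the fractions (0.05, interval -0.04 to 0.14). None was at least 2-fold lower, where 7.21% of all genes were (10.2% in either direction). The sign for Spi1 turned with thinning to the smallest library, to -0.0062, and stayed positive with library totals (0.015).

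In KO cells 0 of the 7 factors were 2-fold apart between MyePro and LSK in either direction, where 4.68% of 10360 genes were (3.15% higher and 1.53% lower). With library totals the median over all genes was -0.13 in place of -0.00076, and 51.2% of the genes past 2-fold were on the higher side in place of 67.2%. Irf8 stood at 45.5 CPM in KO LSK and 48.4 CPM in KO MyePro, a log2 ratio of 0.09 with an interval of -0.12 to 0.30, which was -0.04 with library totals. The ratio in KO was lower than that in control by 0.99 on the log2 scale for Irf8 (difference -0.99, interval -1.21 to -0.77). The difference was -1.04 for Cebpb (-1.49 to -0.58), -0.87 for Cebpe (-1.44 to -0.31) and -0.66 for Cebpd (-1.05 to -0.28). Cebpa kept a like ratio in both genotypes (0.68 in control, 0.79 in KO; difference 0.11, interval -0.04 to 0.25), as did Gfi1 (0.63 and 0.52; difference -0.11, interval -0.38 to 0.15). Spi1 was the only one whose ratio was higher in KO beyond counting error, 0.38 against 0.05 (difference 0.33, interval 0.19 to 0.48). These differences between genotypes rest on 4 libraries without replicates and on counting error alone.

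**Figure D3:**
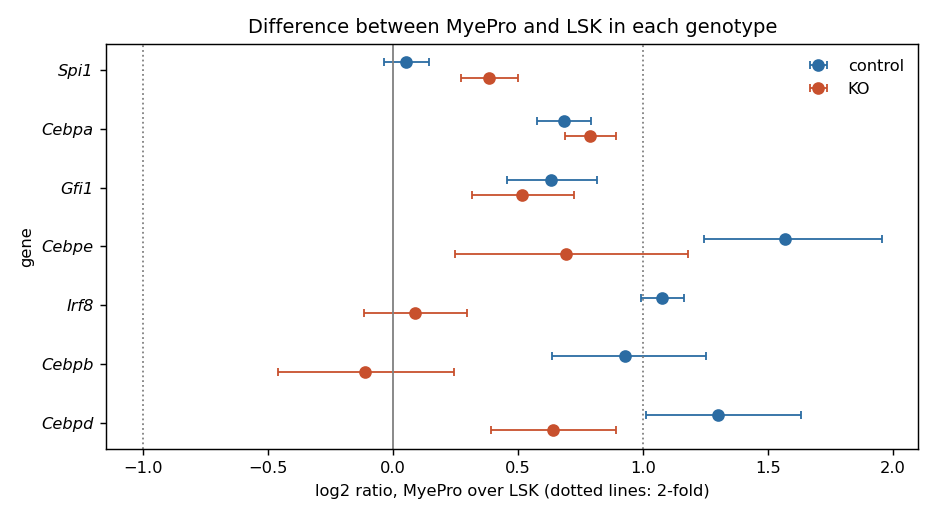
Log2 ratio of MyePro over LSK for each gene in control (blue) and KO (orange) cells, with 95% intervals for counting error and dotted lines at 2-fold. Irf8 lies at 1.08 in control and 0.09 in KO, and Cebpa at 0.68 and 0.79.

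Across the 4 libraries the order of the levels differed from gene to gene. For Cebpa it ran from control LSK through control MyePro and KO LSK to KO MyePro, with no overlap of neighbouring intervals. For Cebpd the order was the same. For Irf8 the KO LSK and KO MyePro levels, which lay within counting error of each other, were lowest, control LSK was next and control MyePro highest. For Gfi1 control MyePro and KO LSK lay within counting error of each other, between control LSK and KO MyePro. For Spi1 control LSK and control MyePro did not differ beyond counting error, KO LSK stood a little above them and KO MyePro highest. For Cebpe KO LSK overlapped control LSK below it, and control MyePro, the highest, overlapped KO MyePro. For Cebpb control LSK was lowest and the other 3 libraries lay between 15.7 and 16.9 CPM.

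Ratios between 2 factors within a library do not depend on how libraries are scaled, although gene length makes their absolute size uninformative. Reads of Irf8 per read of Gfi1, the opposed pair, numbered 4.11 in control LSK (95% interval 3.66 to 4.61) and 1.08 in KO LSK (0.917 to 1.28). In MyePro they numbered 5.58 (5.17 to 6.03) in control and 0.804 (0.717 to 0.901) in KO. Both of these KO libraries thus lay under both controls in the balance of these reads. In LT-HSC the ratio was 4.53 and 1.42 in control 1 and 2 and 3.51 and 6.74 in KO 1 and 2, so that it was lower in KO in transplant 1 and higher in transplant 2. Reads of Cebpa per read of Spi1 numbered 0.604 and 1.21 in control and KO LSK, and 0.934 and 1.60 in MyePro.

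The make-up of the reads within the C/EBP family also differed between KO and control. Cebpa supplied 76.3% of the reads of the 4 C/EBP genes in control LSK and 75.5% in KO LSK, and 68.1% and 79.6% in control and KO MyePro. Cebpe supplied 6.23% and 3.79% in control and KO LSK and 10.5% and 3.77% in MyePro. Its Clopper-Pearson 95% intervals were 9.43% to 11.6% in control MyePro and 3.20% to 4.41% in KO MyePro. Cebpb supplied 9.05% and 7.87% in control and KO LSK and 9.66% and 4.44% in MyePro. Cebpd supplied 8.46% (interval 7.03% to 10.1%) and 12.9% (11.2% to 14.7%) in control and KO LSK, and 11.7% and 12.2% in MyePro. Whether these shifts differ between the populations was not tested.

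In LT-HSC, where each genotype had 2 libraries, 0 of the 6 factors tested passed the edgeR quasi-likelihood test between control and the libraries labelled KO, and the level of several of them followed the transplant. Over all 12844 genes tested, 0.0156% (2 genes) passed at an adjusted p under 0.05, and 2.29% had an unadjusted p under 0.05, against 0 of the 6 factors. In 27.7% of genes the 2 groups did not overlap, 13.8% with KO above and 13.9% with KO below, and for each of the 7 factors they did overlap. With library totals Spi1 was below both controls in both libraries labelled KO, as were 21.8% of all genes (2.43% lay above), and with ERCC scaling it overlapped again. The adjusted p was 0.999 for each of the 6, with Benjamini-Hochberg adjustment. Cebpb, under 1 CPM in every library (0.518 to 0.968 CPM), did not enter the test. DESeq2 called 0 and limma-voom called 0 of the 6 as well. Without control LT-HSC 1, 2 of the 6 had an unadjusted p under 0.05, and the lowest adjusted p among them was 0.723 (edgeR).

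Spi1 measured 18.8 and 26.8 CPM in control 1 and 2 and 22.5 and 17.4 CPM in KO 1 and 2. The edgeR estimate of KO over control was -0.19 ± 0.343 on the log2 scale (SE, 2 libraries in each group). Irf8 measured 5.18 and 17.6 CPM in control 1 and 2 and 10.5 and 15.1 CPM in the libraries labelled KO, an estimate of 0.17 ± 0.609 (log2, SE). Both transplant 2 libraries stood above both transplant 1 libraries for Irf8. Cebpa was low, at 2.59 and 1.69 CPM in the controls and 1.45 and 2.10 CPM in the libraries labelled KO, and its estimate was -0.27 ± 0.806.

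Gfi1 was set apart by 1 library: it stood at 1.14 and 12.4 CPM in control 1 and 2 and at 2.98 and 2.25 CPM in KO 1 and 2. Its estimate was -1.37 ± 1.02 (log2, SE), and without control LT-HSC 2 it was 1.20. Cebpd was also highest in control 2, with 0.0648 and 5.98 CPM in the controls and 0.222 and 0.983 CPM in the libraries labelled KO, and control 1 held only 3 reads of it. Its estimate was -2.32 ± 1.72, and it ranged from -3.29 without control LT-HSC 1 to -1.61 without KO LT-HSC 1, -0.76 with transplant as a block and -0.18 with limma-voom. Cebpe was found almost only in transplant 2, with 2.01 CPM in control 2 and 2.63 CPM in KO 2, while control 1 held 0 reads, which allows up to 0.0648 CPM, and KO 1 held 1 read. Without control LT-HSC 2 or KO LT-HSC 2, Cebpd and Cebpe no longer entered the test.

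Within transplant 1 the log2 ratio of KO over control was 1.35 for Gfi1 and 1.01 for Irf8, and within transplant 2 it was -2.45 and -0.22. For Spi1 the ratios were 0.26 and -0.62, for Cebpa -0.82 and 0.31, and for Cebpd 1.33, on 11 and 3 reads (interval -0.14 to 4.26), and -2.56. These values hold for TMM scaling, and in transplant 1, whose library labelled KO did not show lower Dpy30 on this scale, some directions turned with another scaling. With library totals the ratio in transplant 1 was -0.80 for Spi1 and -0.039 for Irf8, and those in transplant 2 were -0.47 and -0.074, so that neither gene differed in sign between transplants. Gfi1 was then at 0.32 (interval -0.13 to 0.81) and -2.30, and Cebpa at -1.84 and 0.45. Of all genes tested, 50.6% had opposite signs in the 2 transplants, and 3.59% had opposite signs with at least 2-fold in both, as did 2 of the 6 factors, Gfi1 and Cebpd. With transplant as a block 0 of the 6 factors passed.

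**Figure D4:**
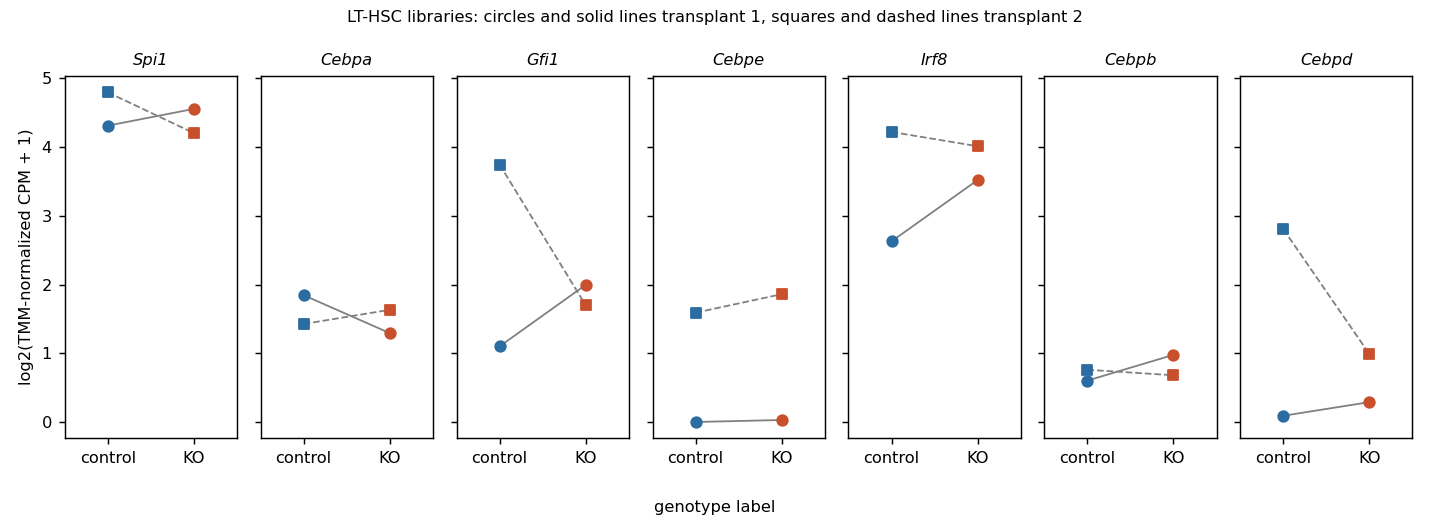
Level of each gene in the 4 LT-HSC libraries as log2(TMM-normalized CPM + 1), with lines joining control and KO of the same transplant. Gfi1 and Cebpd are highest in control 2, Cebpe is near 0 in transplant 1, and on this TMM scale the lines of Spi1, Gfi1 and Irf8 run in opposite directions in the 2 transplants, which for Spi1 and Irf8 did not hold with library totals.

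Other myeloid genes, and markers of other cell types, also differed between the transplants of LT-HSC. The primary granule genes Mpo and Elane stood at 33.4 and 11.3 CPM in control 1 and at 128 and 134 CPM in control 2, and at 45.7 and 10.6 CPM in KO 1 against 120 and 80.9 CPM in KO 2. Both transplant 2 libraries stood at least 2-fold above both transplant 1 libraries for 3 of 8 primary granule genes, for 4 of 11 secondary granule genes and for 2 of the 6 factors tested, Cebpd and Cebpe, against 3.19% of all genes. The count for the factors was largely set by the test's minimum of 1 CPM in 2 libraries, taken before TMM scaling. Cebpd (6.81 and 1.24 CPM in control 2 and KO 2) and Cebpe (2.29 and 3.31 CPM) reached it only in transplant 2. The reverse, at least 2-fold below, held for 1.97% of all genes and for 0 of the 6. The rule for transplant 2 above was also met by 4 of 5 B cell markers and 3 of 5 T and NK cell markers. Among these, Cd79a, Pax5, Ebf1, Ms4a1, Cd3e and Klrb1c likewise reached the minimum only in transplant 2. It was met by 3 of 4 mast cell, basophil and eosinophil markers, 3 of 9 GFI1-repressed genes and 2 of 8 megakaryocyte markers. Of receptors 1 of 9 met it, and of mature neutrophil markers 1 of 9. It was met by 0 of 23 related factors, 0 of 12 monocyte and dendritic cell genes and 0 of 10 erythroid markers. The 9 mature neutrophil markers summed to 74.7 and 166 CPM in control 1 and KO 1 and to 364 and 249 CPM in control 2 and KO 2, with none at 0. The part of such cells in the levels of the factors was not tested.

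The other genes of the pathway were read from 6 lists. Of the growth factor receptors, 1 of 10 was past 2-fold on the higher side and 1 on the lower side in KO LSK, and 3 and 2 were in KO MyePro. The list medians were -0.08 and 0.02. Csf3r, the G-CSF receptor gene and a target of C/EBPα, stood at 96.2 and 182 CPM in control and KO LSK (log2 ratio 0.92), and at 63.0 and 128 CPM in MyePro (1.03). Csf2rb, the shared chain of the GM-CSF receptor, stood at 49.9 and 119 CPM in LSK (1.26) and at 51.5 and 193 CPM in MyePro (1.91). Csf1r, the M-CSF receptor gene and a PU.1 target, was within 2-fold, at 29.8 and 39.2 CPM in LSK and 87.5 and 76.9 CPM in MyePro, and so was Csf2ra (0.17 and 0.50). The receptors that were at least 2-fold lower were Flt3 in both populations (-1.77 and -1.68) and Il6st in MyePro (-1.31), named after their values were seen.

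Primary granule genes, which PU.1, C/EBPα and MYB switch on at the progenitor stage, did not share a direction. Of 8, 2 were past 2-fold on the higher side and 1 on the lower side in KO LSK, and 1 higher and 2 lower in KO MyePro, with medians of 0.50 and 0.23. Mpo, the myeloperoxidase gene, stood at 2027 and 996 CPM in control and KO LSK (-1.03), and at 6408 and 2120 CPM in MyePro (-1.60). Elane, the neutrophil elastase gene, stood at 224 and 327 CPM in LSK (0.54) and at 1584 and 1210 CPM in MyePro (-0.39). Prtn3 had ratios of -0.48 and -1.23 and Ctsg of 0.71 and 0.20.

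Secondary granule and later neutrophil genes, several of which need C/EBPε, were measured for 5 of 12 in LSK and 6 of 12 in MyePro, and each of those was at least 2-fold higher in KO (medians 3.36 and 4.57). S100a8 and S100a9 were at 0 in control LSK, and S100a9 and Cd177 were under 1 CPM in control MyePro (0.702 and 0.753 CPM). Such genes passed the minimum of 5 CPM only through the KO library, so a count over those that passed had to favour higher values. Lcn2, the lipocalin gene, stood at 9.04 and 94.2 CPM in LSK (3.36) and at 13.4 and 315 CPM in MyePro (4.54). Ltf, the lactoferrin gene, and Camp had under 1 CPM in each of these 4 libraries, and Ngp reached 6.86 CPM in KO MyePro from 0.301 CPM in control. Beside them Cebpe itself stood at 0.51 in LSK and -0.37 in MyePro on the log2 ratio scale.

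Monocyte and dendritic cell genes divided. Of 11 measured in LSK, 3 were past 2-fold on each side, and of 10 in MyePro 3 were higher and 4 lower (medians -0.05 and -0.21). Ly86, which encodes the MD-1 partner of the receptor RP105, stood at 10.3 and 2.72 CPM in LSK (-1.86) and at 43.9 and 9.95 CPM in MyePro (-2.13). Cd74, the invariant chain gene, stood at 384 and 43.7 CPM in LSK (-3.13) and at 37.9 and 10.2 CPM in MyePro (-1.88). Ctss, a lysosomal protease gene, had ratios of 0.47 and 1.99, and Cst3 of -0.05 and 0.91. Lyz2, named after its values were seen, stood at 395 and 931 CPM in LSK (1.24) and at 175 and 1794 CPM in MyePro (3.35).

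Of genes that GFI1 is known to repress, 6 of 8 measured were at least 2-fold higher in KO MyePro and 1 lower (median 1.69), beside 11.3% and 7.99% of all genes. In KO LSK 3 of 9 were higher and 3 lower (median 0.07), beside 4.98% and 5.39%. Nab2, at 3.51 and 12.8 CPM in control and KO MyePro, reached the minimum only through the KO library. The difference between the populations was not tested. Id2, an inhibitor of helix-loop-helix factors, stood at 18.6 and 74.4 CPM in LSK (1.99) and at 6.87 and 91.5 CPM in MyePro (3.71). Meis1, which encodes a cofactor of HOX proteins, had ratios of -0.87 in LSK and 1.56 in MyePro. Hoxa9 was the exception in MyePro, with 24.3 and 1.14 CPM in control and KO (-4.24), and it was also lower in KO LSK (-3.46). Gfi1 itself had positive ratios in both populations.

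Among 24 related transcription factors and cofactors, 20 were measured, and past 2-fold were 3 on the higher and 2 on the lower side in KO LSK and 4 and 2 in KO MyePro (medians -0.14 and -0.18). Cebpg, a short C/EBP partner that lacks an activation domain, was level, at 74.4 and 66.8 CPM in LSK (-0.15) and 64.7 and 60.2 CPM in MyePro (-0.10). Ddit3, which encodes the C/EBP inhibitor CHOP, had ratios of 0.04 and -0.25. Spib and Spic, the nearest relatives of PU.1, were under 2 CPM in all 4 libraries. Trib2, whose product promotes breakdown of C/EBPα and which was named after its values were seen, stood at 44.1 and 2.57 CPM in control and KO LSK (-4.02) and at 111 and 9.77 CPM in MyePro (-3.48). Trib1 of the same list, also named after its values were seen, went the other way. It stood at 5.37 and 7.41 CPM in LSK and at 1.45 and 12.1 CPM in MyePro, where it reached the minimum only through the KO library. In LT-HSC 0 genes of the 6 lists passed the edgeR threshold (smallest adjusted p = 0.999); beside 2.29% of all genes, an unadjusted p under 0.05 was found for 4 of 23 related factors, 1 of 9 receptors, 1 of 12 monocyte and dendritic cell genes 1 of 9 GFI1-repressed genes, 0 of 8 primary granule genes and 0 of 11 secondary granule genes.

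**Figure D5:**
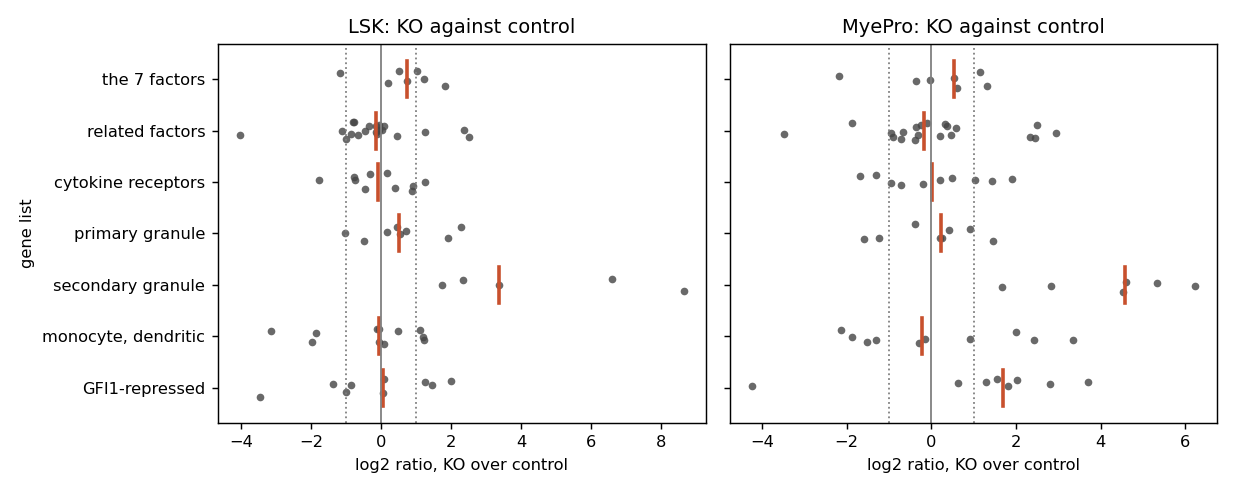
Log2 ratio of KO over control for the 7 factors and the genes of the 6 lists that averaged 5 CPM or more, in LSK (left) and MyePro (right). Points are genes, orange bars list medians, and dotted lines mark 2-fold; the secondary granule points all lie above 1, with medians of 3.36 and 4.57.

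For each factor the genes with the most similar profile over the 4 LSK and MyePro libraries were found by the root mean square difference of centred log2(CPM + 1) values among 8787 other genes averaging 10 CPM or more. Nearest to Cebpa was Tyrobp, the DAP12 adaptor gene of myeloid and NK cells (difference 0.020), followed by Cask and Tmem38b (0.108 and 0.116). Nearest to Irf8 were Bag2 (0.043), Aqp9 (0.053) and Ttll12 (0.056), with Bag2 at 42.1 and 16.8 CPM in control and KO LSK and 83.7 and 18.4 CPM in MyePro. Nearest to Spi1 were Ergic3, Ctsa and Tmbim6 (0.017 to 0.030), and nearest to Gfi1 were Hlx, mt-Nd3 and Coq10b (0.041 to 0.051). Cebpe lay nearest to Ms4a6c (0.063), Afap1 and Cela1, Cebpb to Gna14 (0.055), Sh2b2 and Ctns, and Cebpd to mt-Tp (0.083), Prss16 and Plvap. Of pairs within the 7, Cebpa and Cebpd were the most alike, at 0.21, and Cebpd and Irf8 the least, at 1.55. With 4 libraries many genes fit a profile closely, so these names describe the libraries only.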

How the data were processed

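The data are RNA-seq counts from 8 of the 14 samples of the series, and the 6 ChIP-seq samples were not analysed here. The values are raw read counts per gene as deposited by the authors, 1 file per library. Per the labels' protocols, only the LT-HSC RNA was amplified (Ovation V2). Per the submitters' processing notes, tools included CASAVA 1.8.4, TopHat2 and HTSeq 0.6.0 with build mm10; which annotation and strand setting were used is not given in the sources used here. Entries that name no gene, ERCC entries and an entry named DPY30-SPKIG were left out; reads without a feature made up 2.40% to 6.25% of LSK and MyePro files and 16.7% to 26.0% of LT-HSC files.

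TMM factors (edgeR 4.0.16, R 4.3.3) were computed apart for the 4 LSK and MyePro and the 4 LT-HSC libraries. LSK and MyePro comparisons have 1 library per group: log2 ratios used a prior count of 2, exact binomial (Clopper-Pearson) 95% intervals cover counting error only (Poisson intervals for levels, Wald for differences of ratios), and 2-fold counts cover genes averaging 5 CPM or more. LT-HSC used the edgeR quasi-likelihood test, two-sided, without a block, for genes reaching 1 CPM in 2 or more libraries, with Benjamini-Hochberg adjustment; DESeq2 1.42.0 and limma-voom (limma 3.58.1) were alternatives. Floors use 3 counts per library. Control and KO libraries of 1 number share a transplant per the labels, and their deviations from group means correlated at 0.292. Libraries are pools of mice, so p-values measure the spread between pools. Of the LT-HSC IDs, 96.0% were matched to a symbol. Promoters are from RefSeq (GRCm38.p6). Transcript lengths were not used here, so levels are not compared between genes, and per-kilobase levels gave way to read ratios. The code was tested on simulated data.

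Named were the 7 factors, Dpy30, the first 4 genes of each list as written, the 3 genes most like each factor, and genes marked as named after their values were seen; marker genes, and list genes given to show how a count arose (Cd177, Nab2), were also chosen after their values were seen. Of these, 1 listed gene is not reported here. The members and lists were chosen with earlier results of these data known.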

Additional observations from a re-analysis of the deposited data

Results flagged for a closer look

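In LT-HSC, on the TMM scale, 3 factors had ratios of opposite direction in the 2 transplants, each clear of 0 by counting error. Of all genes tested, 50.6% had opposite signs in the 2 transplants, counted without regard to counting error. The difference between transplants was not tested. For Gfi1 the log2 ratio of the library labelled KO over control was 1.35 in transplant 1 and -2.45 in transplant 2. For Irf8 it was 1.01 and -0.22. For Spi1 it was 0.26 and -0.62. On this scale the library labelled KO in transplant 1 did not show lower Dpy30 (log2 ratio 0.12, against -0.85 in transplant 2). With library totals the signs of Spi1 and Irf8 were the same in both transplants, and Dpy30 was lower in both libraries labelled KO (-0.93 and -0.70). On that scale 21.8% of all genes tested lay below both controls in both libraries labelled KO, and 2.43% above. Mitochondrial ribosomal RNA made up 62.4% of the gene counts of KO LT-HSC 1 against 45.1% to 49.6% in the other libraries, and its part in these values was not tested.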

How the results depend on the processing

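Under the scalings, prior counts, expression minimums and thinning tried, Cebpa and Cebpd stayed at least 2-fold higher and Irf8 at least 2-fold lower in both KO populations. Thinning to the smallest library was added after the data were seen. The Cebpa ratio ranged from 1.22 to 1.35 in LSK and from 1.32 to 1.41 in MyePro, and the Irf8 ratio from -1.18 to -1.05 and from -2.18 to -2.13. At 1.5-fold, 6 factors were higher in control MyePro than control LSK and 3 in KO MyePro than KO LSK. Genes past the fold numbered 1069, 1978, 1028 and 485 for KO against control in LSK and in MyePro and MyePro against LSK in control and in KO; they numbered 2076, 3278, 1825 and 1327 with a minimum of 1 CPM, 4491, 5891, 3452 and 3876 with no minimum, and 2450, 4107, 2279 and 1441 at 1.5-fold. With library totals the share of higher among these genes went from 48.0% to 58.6% in LSK KO against control and from 67.2% to 51.2% in KO MyePro against LSK.

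In LT-HSC 0 factors passed under any alternative, the replicate block by transplant included. Genes past the threshold numbered 2 with no block, 4 with the replicate block, 4 with library totals, 4 with no filter, 1 with ERCC size factors, 14 with DESeq2 and 1 with limma-voom, and 0 to 5 when 1 library was left out. The sign of Irf8 turned with library totals (-0.066), without control 1 (-0.45) and without KO 2 (-0.13). When 1 library was left out, the Cebpa estimate ranged from -0.56 to 0.083 (turning without control 1), Cebpe from -0.59 (without control 1) to 1.39, Spi1 from -0.42 to 0.093 (turning without control 2) and Gfi1 from -2.24 to 1.20 (turning without control 2); the cause was not tested. Within transplants, scalings added after the data were seen turned these ratios: with library totals Cebpb (-0.14), Spi1 (-0.80) and Irf8 (-0.039) in transplant 1; with ERCC size factors Cebpb (-0.46), Spi1 (-1.14), Gfi1 (-0.012) and Irf8 (-0.38) in transplant 1 and Cebpb (0.50), Spi1 (0.097) and Irf8 (0.50) in transplant 2. Per-kilobase alternatives were not run, as transcript lengths were not used here. Depth limits Cebpb (24 to 48 reads in LT-HSC), Cebpd and Cebpe.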
